A study of Mus musculus with 8 samples.

Results

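Kidneys of mice with ischaemia-reperfusion injury alone were compared with kidneys of sham-operated mice. The comparison was defined by the sample titles, as the 2 mice labelled IRI (30 and 34) against the 2 labelled sham (1 and 4), and so uses 4 of the 8 samples of the series. The series was made to see what a miR-5100 mimic, carried by polyethylenimine nanoparticles, does in acute kidney injury. The remaining 4 mice were injured 2 days after nanoparticles had been injected into a tail vein. The particles carried the mimic in 2 of these mice and a control miRNA in the other 2, at 5 nmol in 200 µl. In IRI mice the left renal vessels were clamped for 45 min and reperfused, the right kidney was taken out, and nothing was injected. Sham mice had a midline incision only. Every left kidney was collected 24 h after surgery. Strain, sex and age are not stated in the labels, which number the mice separately. Because the IRI mice lost a kidney and the sham mice did not, effects of the clamp and of the nephrectomy cannot be told apart.

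In ischaemia-reperfusion injury the tubule cells of the outer medulla and cortex are starved of oxygen and then flooded with it. The proximal tubule, which reabsorbs most filtered solute and runs on fatty acid oxidation, is the segment known to suffer most. Surviving tubule cells are known to flatten, lose their brush border and switch on genes of injury and repair, among them those for kidney injury molecule 1 and lipocalin 2, which are used as urinary markers of such damage.

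Levels are given as the log2 of the processed 1-colour signal minus the 75th percentile of that array, so that 0 is the 75th percentile of all spots and 1 unit is a 2-fold difference in signal. A difference is the mean of the 2 IRI mice minus the mean of the 2 sham mice on this log2 scale, with its moderated standard error from limma. A gene was called where its p-value, adjusted by Benjamini-Hochberg over all 21264 genes tested, was below 0.05. The p-values rest on 2 mice per group and on a spread pooled over the 8 arrays of the series, and a level can be compared between mice but not between genes. The array positions written in the scanner files, if read as row and column, put all 4 arrays in 1 row of 1 slide. Their 75th percentiles ran from 408 to 600 units of signal and 55.7% to 58.8% of spots were well above background. Over all genes the mice of a group differed with an SD of 0.33 in sham and 0.39 in IRI. In the injected groups, which enter the pooled spread, the SD was 0.67 with the mimic and 0.51 with control miRNA.

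The labels were checked first with 3 genes that mark injured tubule. Havcr1 encodes kidney injury molecule 1, a receptor for dying cells on the tubule surface. The array reads it with 1 probe of 60 bases at chr11:46592056-46592115 of build mm9 on the plus strand, within the last coding stretch of the transcript. The probe is shown because the check of the labels rests on it, with the stop codon that ends it in capitals.
Havcr1: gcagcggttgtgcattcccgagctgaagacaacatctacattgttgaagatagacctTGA
Its level was -5.31 and -4.72 in sham mice 1 and 4 and 4.36 and 4.56 in IRI mice 30 and 34. The probe was not well above background in either sham kidney, so the rise is a bound, at least 541-fold (adjusted p = 0.000252). Krt20, a keratin that injured proximal tubules switch on, stood at -4.26 and -4.22 in sham and at 6.16 and 5.87 in IRI. That was 1221-fold higher, or 10.25 ± 0.40 on the log2 scale (adjusted p = 0.000305). Lcn2, the iron-siderophore carrier lipocalin 2, rose from -0.22 and -0.57 to 7.45 and 7.28 (7.75 ± 0.51, adjusted p = 0.000891). For each of the 3 genes both IRI kidneys lay far above both sham kidneys, as labelled. The kidney itself showed in every sample: Umod, the uromodulin of the thick ascending limb, stood at 7.57 and 7.85 in sham and at 7.25 and 7.99 in IRI, and Kap, a kidney protein regulated by androgen, at 9.60 and 9.37 in sham and 9.09 and 8.85 in IRI.

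**Figure D1:**
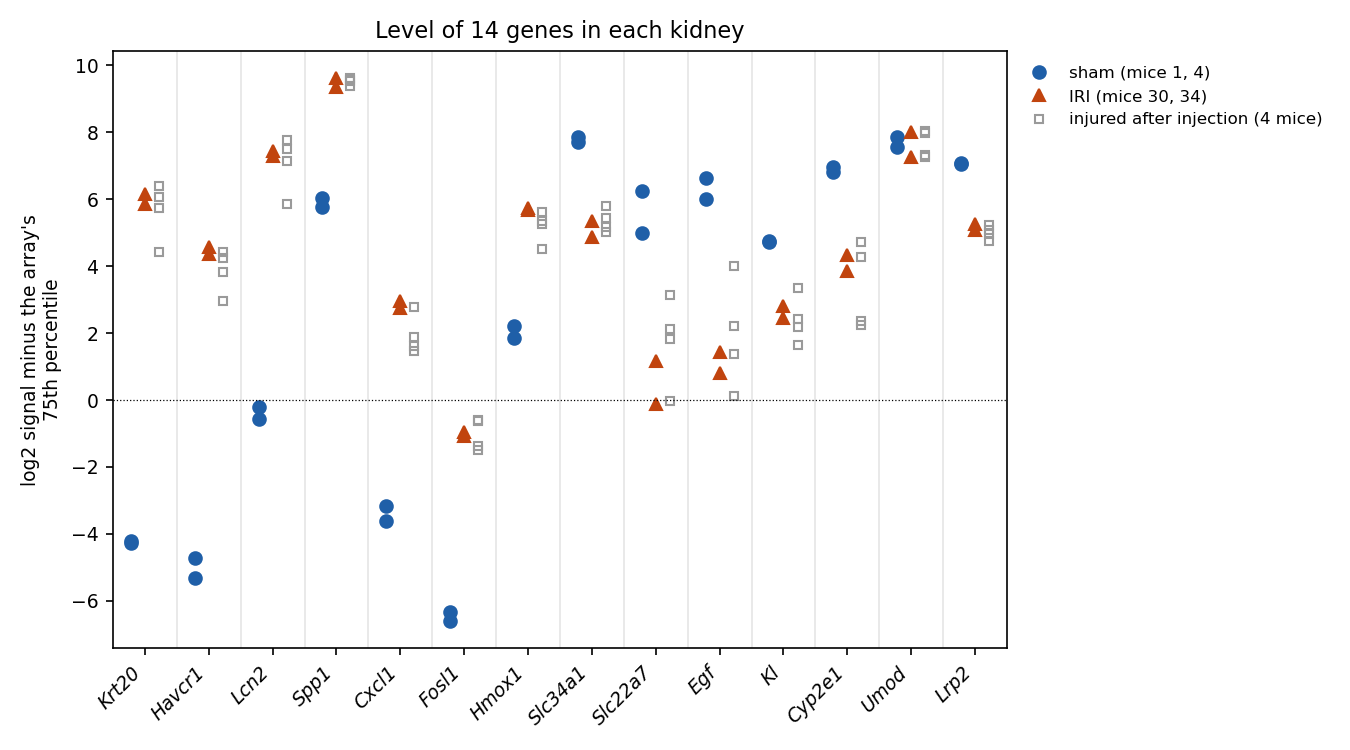
Level of 14 genes in each kidney, as log2 signal minus the 75th percentile of the array, with sham mice as circles, IRI mice as triangles and the 4 mice injured after an injection as open squares. The 2 IRI kidneys lie above both sham kidneys for the 7 genes on the left and below them for 6 of the 7 on the right, while for Umod the groups overlap. Over all 21264 genes tested the 2 groups did not overlap for 15258.

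Across the array 3891 of 21264 genes were called (18.3%), 2009 of them higher in IRI (9.45%) and 1882 lower (8.85%). Differences of at least 2-fold made up 1258 of the rises and 1356 of the falls, and 134 genes rose and 93 fell at least 10-fold by the fitted difference, dim genes included. The median difference over all genes was -0.08. Scaling to the median of each array moved that median by 0.17 and gave 2470 rises and 1352 falls, so that 64.6% of calls were rises against 51.6% here. Leaving out 1 mouse at a time left 801 calls without sham mouse 1, 858 without sham mouse 4, 871 without IRI mouse 30 and 1078 without IRI mouse 34. All 3891 genes kept their sign in each of these 4 fits, and 665 were called in all of them. Over all 21264 genes the 2 groups did not overlap for 15258. For such a gene leaving out 1 mouse cannot change the sign, so the kept signs say little about the calls. Fitted on the 4 arrays alone 6785 genes were called, and with the brightness of each array as a covariate 1857. A call is said below to have held with any mouse left out where the gene was called in all 4 of those fits, which was so for 17.1% of all calls. Of the 79 lists of genes with at least 1 call, 26 had 0 calls that held, and the number that held is given beside the count of each group.

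**Figure D2:**
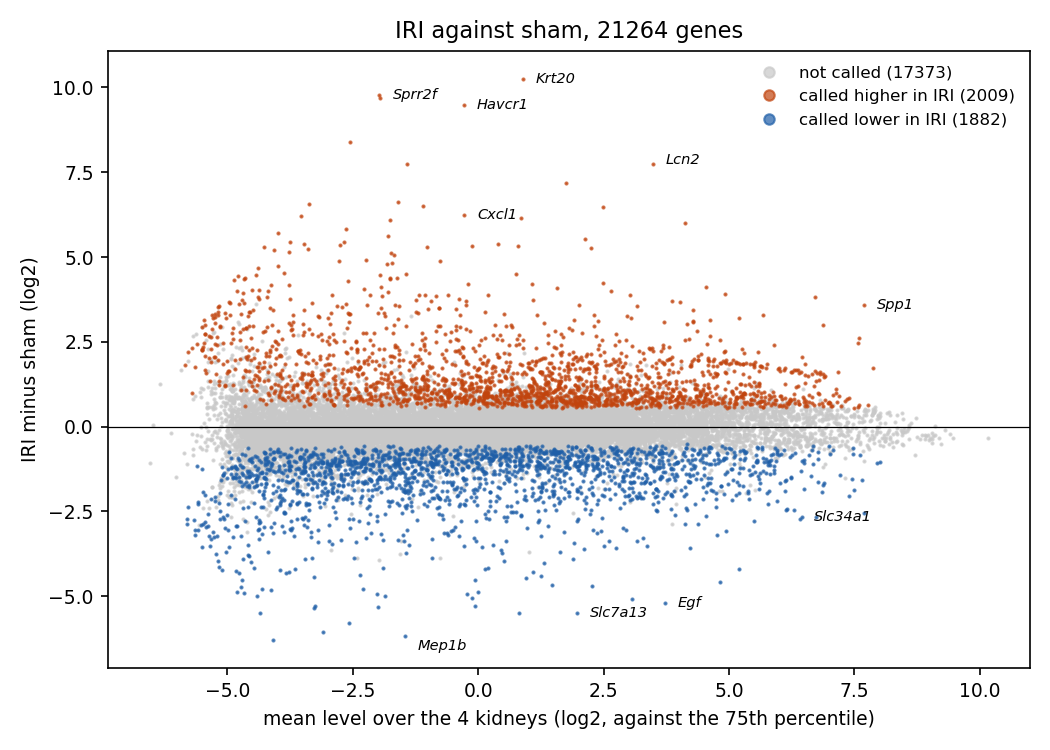
Difference between IRI and sham (log2, vertical) against the mean level over the 4 kidneys (log2, horizontal) for each of 21264 genes, with the 2009 called higher in orange and the 1882 called lower in blue. Krt20, Sprr2f, Havcr1 and Lcn2 lie at the top of the plot, between 7.75 and 10.25.

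Among the largest rises were genes of several kinds. Sprr2f and Sprr1a encode small proline-rich proteins of the cornified envelope of squamous epithelium. The Sprr2 genes are near copies of each other, and a probe may read more than 1. Sprr2f stood at -6.59 and -7.00 in sham and at 3.24 and 2.54 in IRI, at least 192-fold higher (adjusted p = 0.00102), and Sprr1a rose by 6.14 ± 0.33 (adjusted p = 0.000607). Crct1, another gene of the epidermal differentiation complex, was at least 63.4-fold higher (adjusted p = 0.000726), from -4.55 and -5.07 to 1.21 and 1.36. Meltf, an iron-binding membrane protein, was at least 26.6-fold higher. For each of these, both IRI kidneys lay far above both sham kidneys.

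Secreted products were the second kind. Vgf, the precursor of neuroendocrine peptides, stood at -6.68 and -7.05 in sham and 3.04 and 2.80 in IRI by its brighter probe (adjusted p = 0.00315), while its other probe gave a difference of 1.70. The brighter probe was not well above background in sham, and by that probe Vgf was at least 196-fold higher. Slpi, a secreted inhibitor of leukocyte proteases, went from -4.91 and -5.68 to 1.80 and 3.08 (adjusted p = 0.000983). This probe was not well above background in sham either, so the rise by it is a bound, at least 141-fold, and a second probe gave 0.04, so the sizes of both rises depend on the probe. The precursor of gastrin-releasing peptide, Grp, was at least 19.2-fold higher, and Mmp7, the protease matrilysin, at least 24.5-fold higher by the brighter of 2 probes, at -6.47 and -6.82 in sham and 0.22 and -0.39 in IRI. Of the 134 genes at least 10-fold higher, 105 held with any mouse left out.

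Leaving out provisional gene models, the largest falls by fitted difference were those of Kcnt1, Mep1b, Adgrg4, C8a and Nccrp1, genes with different roles. Mep1b, the beta subunit of the brush border protease meprin, stood at 1.63 and 1.63 in sham and at -5.53 and -3.54 in IRI, where 1 of 2 arrays had it well above background (-6.17 ± 1.09, adjusted p = 0.0124). Slc7a13, an apical transporter of acidic amino acids and cystine in the straight proximal tubule, fell from 4.64 and 4.78 to -1.39 and -0.15 (-5.48 ± 0.63, adjusted p = 0.00306). The organic anion transporter gene Slc22a7 went from 6.24 and 4.99 to -0.11 and 1.17 (-5.09 ± 1.00, adjusted p = 0.0176), and its relative Slc22a22 fell by 4.93 ± 1.15, above background on 1 of 2 IRI arrays. Both groups of mice were spread by over 1 unit for Slc22a7 and did not overlap, as was so for 15258 of the 21264 genes tested.

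Adgrg4, an orphan adhesion receptor, was at least 31.1-fold lower (adjusted p = 0.00773), and Nccrp1 fell from 3.76 and 3.35 to -2.16 and -1.74 (-5.50 ± 0.69, adjusted p = 0.00406). Car5a, a mitochondrial carbonic anhydrase, was at least 20.9-fold lower (adjusted p = 0.00199), and Gys2, the liver type of glycogen synthase, fell by 4.92 ± 0.50 (adjusted p = 0.00211). Egf, the growth factor precursor made by the distal tubule, fell from 6.01 and 6.62 to 0.80 and 1.43, with a difference of -5.20 ± 1.11 (adjusted p = 0.0231). Pde6a, a cyclic GMP phosphodiesterase subunit best known from photoreceptors, fell by 5.31 ± 0.30 (adjusted p = 0.000726), and Akr1c18, a steroid dehydrogenase, by 5.05 ± 1.37. Kcnt1, a sodium-activated potassium channel, was at least 16.8-fold lower by its brightest probe, but its 3 probes ranged from -6.28 to -0.62. Of the 93 genes at least 10-fold lower, 58 held with any mouse left out.

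Of the markers of tubular injury, 12 of the 19 tested rose and 0 fell, with a median difference of 2.61, beside rises of 9.45% and a median of -0.08 over all genes. Timp1, an inhibitor of matrix proteases, rose from -2.08 and -1.66 to 3.43 and 3.50 (5.33 ± 0.21, adjusted p = 0.000305). Spp1, which encodes the secreted phosphoprotein osteopontin, was already bright in sham at 5.77 and 6.03 and reached 9.62 and 9.34 in IRI (3.57 ± 0.18, adjusted p = 0.000599). Clu, the secreted chaperone clusterin, rose by 2.61 ± 0.28 and Vcam1, a leukocyte adhesion molecule that damaged tubule cells also make, by 1.23 ± 0.20. Tnfrsf12a, the receptor of the cytokine TWEAK, went from 0.45 and 0.30 to 4.58 and 4.63 (4.23 ± 0.31). Of the 12 rises 9 held with any mouse left out.

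Keratins form the intermediate filaments of epithelia, and the simple ones, Krt8 and Krt18, pair in tubule cells. Both rose, Krt8 from 4.22 and 4.23 to 6.35 and 6.42 (2.16 ± 0.27, adjusted p = 0.00398) and Krt18 from 2.82 and 2.90 to 5.27 and 5.54 (2.55 ± 0.18, adjusted p = 0.000931). Krt19, found in ducts and progenitor-like epithelium, rose by 3.45 ± 0.43, and Krt7 by 0.98 ± 0.17. The basal keratin gene Krt5 rose by 2.42 ± 0.64, and its partner Krt14 by 3.63 ± 0.82 from a sham level above background on 1 of 2 arrays. In all, 7 of the 11 keratins of the list rose and 0 fell, and 4 rises held with any mouse left out. The list leaves out other keratins: of all 24 genes with a keratin symbol 10 rose and 1 fell, with a median of 0.60.

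Of 34 genes of the cytoskeleton 20 rose and 0 fell, at a median of 0.97. Tubulins, the subunits of microtubules, gave the largest values. Tubb2b went from 1.58 and 1.32 to 4.62 and 4.66 (3.19 ± 0.25, adjusted p = 0.00107), Tubb2a from 2.85 and 2.62 to 5.89 and 5.79 and Tubb6 from 0.07 and 0.01 to 2.79 and 2.67 (2.69 ± 0.27). Of all genes with a tubulin symbol on the array, 10 of 15 rose and 0 fell, with a median of 1.94, and 8 of the 10 held. Tubulin genes are alike in sequence, and cross-hybridisation between their probes was not tested. Actn1, which crosslinks actin, rose by 2.56 ± 0.23 and Tpm4, a tropomyosin, by 2.22 ± 0.17. Villin, the actin bundler of the brush border, did not pass: Vil1 stood at 4.61 and 4.58 in sham and 4.62 and 4.75 in IRI. Of the 20 rises 12 held with any mouse left out.

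The S100 proteins and annexins bind calcium, and 10 of 20 rose while 1 fell, with 8 of the 11 calls held. Anxa2, which brings plasminogen to the cell surface together with S100a10, rose from 3.54 and 3.68 to 6.67 and 6.94 (3.20 ± 0.23, adjusted p = 0.000983), and S100a10 itself by 2.44 ± 0.20. S100a6 rose from 2.06 and 2.32 to 5.41 and 6.31 and S100a11 by 2.04 ± 0.17. Anxa3 rose by 4.00 ± 0.39, though its probes ranged from 0.69 to 4.00. Anxa13, an annexin of polarised epithelium, was the 1 that fell, from 1.18 and 0.92 to -1.45 and -2.04 (-2.79 ± 0.25, adjusted p = 0.0014). The intestinal and renal calcium carrier gene S100g stood at 7.28 and 7.17 in sham and 7.05 and 7.17 in IRI, a difference of -0.11 ± 0.37 that did not pass.

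Genes of the first segment of the proximal tubule, where phosphate, glucose, bicarbonate and amino acids are reclaimed, were mostly lower. Of 15 tested 9 fell and 0 rose, and all 15 differences were below 0, with a median of -1.46. In whole kidney RNA, fewer cells of a type and less RNA per cell cannot be told apart. Slc34a1, the main sodium-phosphate cotransporter of the brush border, fell from 7.71 and 7.85 to 4.87 and 5.36 (-2.67 ± 0.30, adjusted p = 0.00284), and Slc34a3, its relative, from 4.38 and 4.69 to 0.46 and 1.48 (-3.57 ± 0.69, adjusted p = 0.017). Gatm, the first enzyme of creatine synthesis, went from 5.01 and 4.84 to 1.50 and 1.78 (-3.29 ± 0.47). Slc7a7, which lets cationic amino acids out across the basal membrane, fell by 1.75 ± 0.16, and Slc5a2, the glucose transporter SGLT2, by 1.15 ± 0.20 from 6.41 and 6.52 to 5.25 and 5.38.

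Some genes of that segment did not pass the test. Slc22a6, the basal organic anion transporter OAT1, stood at 7.03 and 6.85 in sham and 6.91 and 6.63 in IRI (-0.17 ± 0.25, adjusted p = 0.65), and Slc2a2, the basal glucose carrier, at 0.90 and 0.92 in sham and 0.83 and 0.79 in IRI (-0.11 ± 0.23). The basal bicarbonate exit gene Slc4a4 gave -0.33 ± 0.30. For Slc6a19, the apical carrier of neutral amino acids, both IRI mice were lower, at 0.55 and 0.70 against 2.99 and 3.35, with a difference of -2.55 ± 0.74 that missed the threshold (adjusted p = 0.0558). Of the 9 falls in this list 2 held with any mouse left out.

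In the list of the later proximal segments 15 of 26 genes fell and 1 rose, with a median of -1.35. Cyp2e1, a cytochrome P450 that oxidises small molecules such as ethanol, fell from 6.96 and 6.81 to 3.85 and 4.33 (-2.80 ± 0.24, adjusted p = 0.00118), and Acy3, an aminoacylase, from 8.52 and 8.34 to 6.36 and 6.38. Slco1a1, a carrier of organic anions and steroids, fell by 3.08 ± 0.39, and Cyp7b1, an oxysterol hydroxylase, went from 5.05 and 4.18 to -0.36 and 0.17 (-4.71 ± 0.90). The 1 rise was Slc2a1, the glucose transporter GLUT1, from 2.70 and 2.79 to 4.05 and 3.92 (1.24 ± 0.16, adjusted p = 0.00488). The cation transporter gene Slc22a2 gave -1.31 ± 0.38 and did not pass. Of the 16 calls 4 held with any mouse left out.

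Protein reclaim from the filtrate runs through megalin and cubilin. Megalin, Lrp2, fell from 7.06 and 7.08 to 5.07 and 5.25 (-1.90 ± 0.19, adjusted p = 0.0021), Cubn by 1.25 ± 0.22 and its membrane anchor Amn by 1.25 ± 0.23. The megalin chaperone Lrpap1 fell by 1.40 ± 0.23 and the folate receptor Folr1 by 1.55 ± 0.33. The adaptor Dab2, which carries megalin into the cell, did not pass, at 4.13 and 4.23 in sham and 4.75 and 4.40 in IRI. The recycling GTPase gene Rab11a rose by 0.79 ± 0.15, and in all 5 of 13 genes of this apparatus fell and 1 rose, of which 1 call held.

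The brush border list gave 9 falls and 0 rises among 21 genes, and 1 fall held. Dpep1, the dipeptidase of the proximal brush border, went from 3.56 and 3.39 to 0.94 and 1.11 (-2.45 ± 0.19, adjusted p = 0.00102), and the scaffold gene Pdzk1 from 7.15 and 7.33 to 6.03 and 6.22 (-1.11 ± 0.16). The other meprin subunit, Mep1a, fell by 1.72 ± 0.35 from 7.78 and 7.68 to 5.79 and 6.22. Several bright peptidases did not pass: Anpep gave -0.55 ± 0.51, Enpep -0.22 ± 0.29 and Dpp4 -0.85 ± 0.25. Ace, which makes angiotensin II, fell by 1.44 ± 0.37.

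In the thick ascending limb, which dilutes the urine by salt uptake without water, 8 of 22 genes fell and 1 rose. Slc12a1, the sodium-potassium-chloride cotransporter, fell from 3.73 and 4.15 to 0.56 and 1.03 (-3.14 ± 0.59, adjusted p = 0.0153). Kcnj1, the potassium channel that recycles potassium for it, fell by 1.22 ± 0.26, and Ppp1r1b, a phosphatase inhibitor, by 4.46 ± 0.72. Irx1, a transcription factor of the loop, went from 3.50 and 3.38 to 1.33 and 1.90. Umod gave -0.09 ± 0.26 and did not pass. The 1 gene that rose was Cldn14, a claudin that blocks calcium passage, by 2.63 ± 0.26, from a sham level that was above background on 1 of 2 arrays. Of the 9 calls 1 held with any mouse left out.

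Distal and connecting tubule genes gave 5 falls and 0 rises among 18, and 1 fall held. The calcium buffers Pvalb and Calb1 went from 2.63 and 2.36 to -1.66 and -1.27 (-3.96 ± 0.41, adjusted p = 0.00217) and from 5.05 and 5.17 to 3.90 and 3.25 (-1.54 ± 0.25). Slc12a3, the thiazide-sensitive cotransporter that defines the segment, gave -0.59 ± 0.34 and did not pass (adjusted p = 0.269). In principal cells 2 genes rose and 2 fell among 16, with 1 call held, and Aqp2, the vasopressin-regulated water channel, was 2.58 and 2.62 in sham and 2.09 and 2.41 in IRI (-0.34 ± 0.22, adjusted p = 0.301). The shares of principal cell genes called lay near the 9.45% higher and 8.85% lower over all genes. Aqp1, the water channel of the proximal tubule and thin limb, fell from 7.34 and 7.39 to 4.42 and 5.38 (-2.47 ± 0.47, adjusted p = 0.0165).

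The intercalated cells, which secrete acid or base, gave 8 falls and 0 rises among 17 genes. Slc4a1, the basal anion exchanger of the acid-secreting cell that red cells also carry, fell from 2.43 and 2.24 to -1.53 and -1.27 (-3.74 ± 0.68, adjusted p = 0.0142). Slc26a4, the exchanger pendrin of the base-secreting cell, fell by 1.18 ± 0.17 and the ammonia channels Rhbg and Rhcg by 1.28 ± 0.20 and 1.84 ± 0.48. Insrr, an alkali-sensing receptor, fell from 2.76 and 2.88 to 0.87 and 0.70. Foxi1, the transcription factor that defines these cells, gave -0.33 ± 0.18 and did not pass. None of the falls in this list was called in every fit with 1 mouse left out. All 5 red cell markers tested, Slc4a1 among them, had differences below 0, from -3.74 to -1.11, and Hba-a1 and Alas2 gave -1.90 ± 0.92 and -1.45 ± 0.74 and did not pass. The part of red cells in the value of Slc4a1 was not tested.

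**Figure D3:**
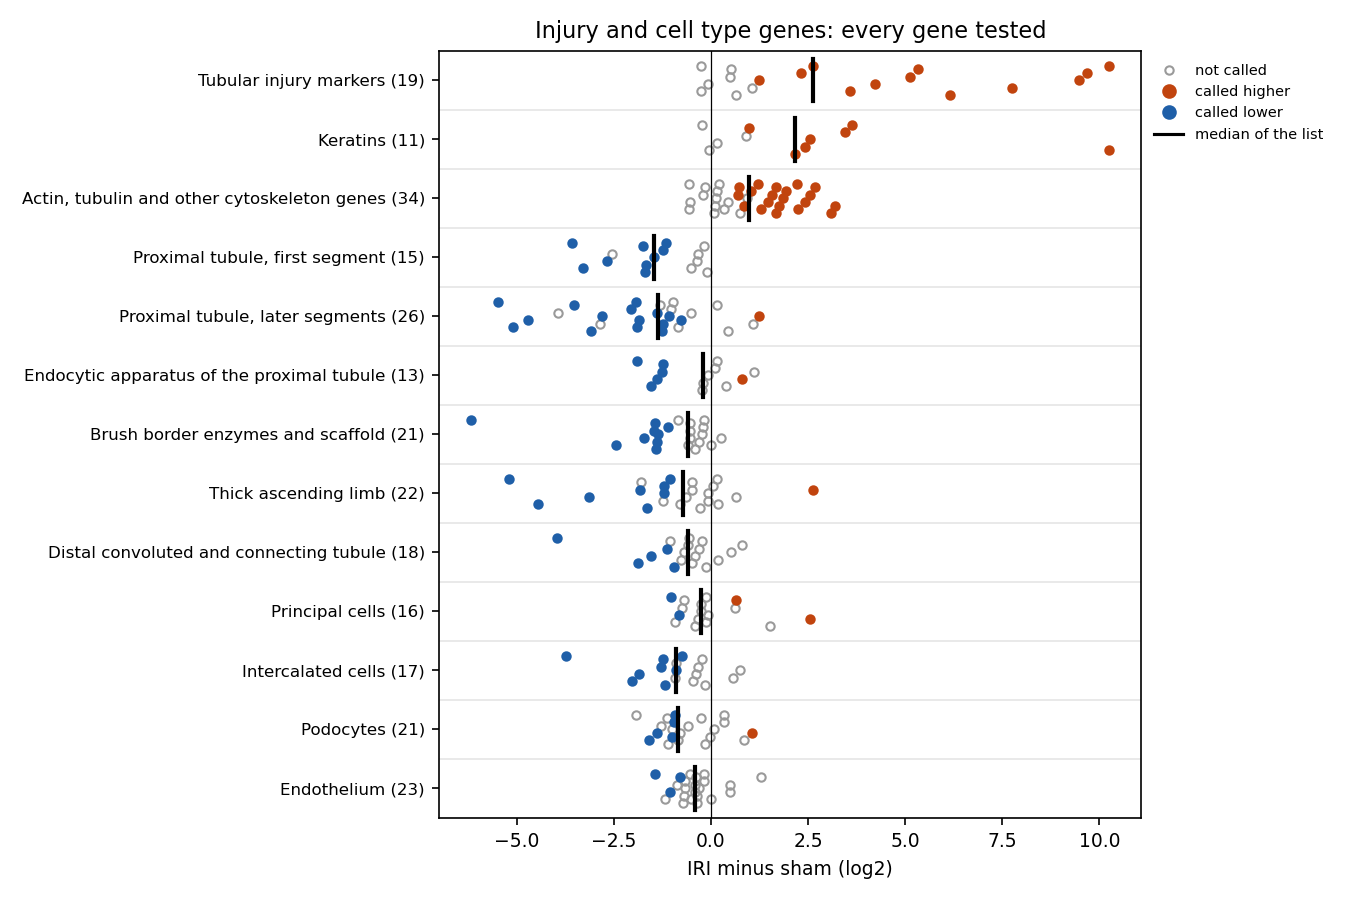
Difference between IRI and sham (log2, horizontal) for every gene tested in 13 lists of injury, nephron and vessel genes, with the number tested in brackets. Filled points were called and open ones were not, and the bar is the median of the list, which is 2.61 for injury markers and -1.46 for the first proximal segment.

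Podocytes, the filter cells of the glomerulus, gave 5 falls and 1 rise among 21 genes. Robo2, a guidance receptor, fell by 1.40 ± 0.21 and Tcf21, a podocyte transcription factor, by 1.61 ± 0.36, while Wt1, another, gave -0.58 ± 0.87 and did not pass. The rise was Cd2ap, an adaptor at the slit diaphragm, by 1.06 ± 0.18. In the endothelium 3 of 23 genes fell and 0 rose: the transcription factor Erg fell from -1.04 and -0.95 to -2.52 and -2.33 (-1.43 ± 0.24, adjusted p = 0.011), Tie1 by 1.05 ± 0.24 and Icam2 by 0.80 ± 0.18. Pecam1, a junction protein of endothelium, stood at -2.73 and -2.40 in sham and -2.58 and -2.55 in IRI and did not pass. None of the calls in the podocyte and endothelial lists was called in every fit with 1 mouse left out. Over all genes 9.45% rose and 8.85% fell. Icam1 and Edn1, for a leukocyte adhesion molecule and the vasoconstrictor endothelin 1, rose by 2.13 ± 0.24 and 2.28 ± 0.17.

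The transcription factors that tubule cells keep switched on mostly did not pass. Hnf4a, the factor for proximal identity, was 6.47 and 6.59 in sham and 6.04 and 5.83 in IRI (-0.59 ± 0.23, adjusted p = 0.118), and Pax8, a factor of kidney development, gave 0.24 ± 0.27. In the list 3 of 31 rose and 5 fell, and 3 of the 8 calls held. The share of rises was near the 9.45% over all genes, where falls made up 8.85%. Sox9, a factor of tubule repair, rose from -4.88 and -3.71 to 1.32 and 0.34 (5.12 ± 0.84, adjusted p = 0.00997), above background on 1 of 2 sham arrays, and Sox4 from 0.67 and 0.82 to 2.48 and 2.47 (1.73 ± 0.16). Maf and Emx1 fell by 1.52 ± 0.18 and 1.23 ± 0.15.

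Immediate early transcription factors need no new protein to be switched on. Of 29 tested 24 rose and 0 fell, at a median of 1.89, beside rises of 9.45% over all genes. Fos stood at -2.49 and -3.25 in sham and 0.45 and 0.51 in IRI (3.35 ± 0.33, adjusted p = 0.00182). Its partners Jun and Junb rose by 1.89 ± 0.19 and 2.32 ± 0.24, and Fosl1, a relative of Fos, was at least 12.8-fold higher, from -6.61 and -6.34 to -1.08 and -0.96. Atf3, a stress repressor, was at least 11.7-fold higher (adjusted p = 0.00508). Myc went from -3.28 and -2.60 to 0.23 and 0.66 (3.39 ± 0.30), and Maff, a small partner of NRF2, rose by 4.37 ± 0.39 from a sham level above background on 1 of 2 arrays. Egr2 rose from -5.17 and -4.35 to -0.69 and -0.21 (4.31 ± 0.57), with 1 of 2 sham arrays above background. The acute phase factors Cebpb and Cebpd rose by 1.91 ± 0.15 and 2.96 ± 0.32, and Klf6 and Runx1 by 2.08 ± 0.27 and 2.75 ± 0.38. Fosb did not pass (0.55 ± 0.25). Of the 24 rises 15 held with any mouse left out.

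Promoters were searched on both strands for motifs of factors known to act on these lists. The windows run from 250 bases before to 50 after each start in RefSeq, build GRCm38.p6, and 12829 of the 21264 genes tested had at least 1, with 16206 windows in all. The serum response element, or CArG box, was in 1.36% of all windows, the NF-kB motif kappaB in 5.05%, the heat shock motif GAANNTTC in 6.18% and the NRF2 motif TGACNNNGC in 13.8%. A match is a run of letters, matches to different motifs may overlap, and no binding was measured. Below are promoters of 4 genes that rose, 1 from each of the immediate early, NF-kB, CXC chemokine and heat shock lists, with the matches to the motif of that list in capitals. They were chosen after the search to show what a match looks like.
Egr2 (chr10:67537316-67537615, plus strand): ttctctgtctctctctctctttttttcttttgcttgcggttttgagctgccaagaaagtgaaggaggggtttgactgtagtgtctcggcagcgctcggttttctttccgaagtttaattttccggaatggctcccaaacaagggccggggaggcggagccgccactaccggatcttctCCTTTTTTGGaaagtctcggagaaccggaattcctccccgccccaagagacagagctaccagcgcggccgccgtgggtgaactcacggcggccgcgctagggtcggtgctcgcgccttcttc
Nfkb2 (chr19:46304487-46304786, plus strand): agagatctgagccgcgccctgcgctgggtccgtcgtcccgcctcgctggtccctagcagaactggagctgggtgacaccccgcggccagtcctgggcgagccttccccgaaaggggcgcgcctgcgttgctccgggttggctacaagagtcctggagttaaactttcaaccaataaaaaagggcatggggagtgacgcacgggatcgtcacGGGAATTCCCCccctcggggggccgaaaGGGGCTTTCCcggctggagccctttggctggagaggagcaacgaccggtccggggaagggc
Cxcl1 (chr5:90890995-90891294, plus strand): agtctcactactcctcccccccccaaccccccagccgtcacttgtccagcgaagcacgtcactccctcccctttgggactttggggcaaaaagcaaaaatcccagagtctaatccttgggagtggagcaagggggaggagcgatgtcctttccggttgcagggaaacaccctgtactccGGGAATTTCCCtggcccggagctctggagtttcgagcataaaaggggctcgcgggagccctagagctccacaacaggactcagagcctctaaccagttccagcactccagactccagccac
Hspb1 (chr5:135887669-135887968, plus strand): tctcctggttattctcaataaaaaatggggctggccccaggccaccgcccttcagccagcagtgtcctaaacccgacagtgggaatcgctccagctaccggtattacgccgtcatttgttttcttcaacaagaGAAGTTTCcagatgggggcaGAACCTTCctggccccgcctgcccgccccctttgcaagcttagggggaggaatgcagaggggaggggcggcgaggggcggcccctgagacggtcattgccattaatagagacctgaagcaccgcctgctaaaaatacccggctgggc
Egr2 has 5 windows and Nfkb2 3, for different starts, and 1 that holds the match is shown for each. The CArG box of Egr2 begins 72 bases before the start, the 2 kappaB stretches of Nfkb2 39 and 11 bases before it and that of Cxcl1 71 bases before it. The heat shock matches of Hspb1 begin 117 and 97 bases before its start. Genes that rose, were marked as leading members of their list and had a window were then counted. KappaB was found in 6 of 7 NF-kB and 1 of 2 CXC genes and the heat shock motif in 3 of 3 heat shock genes. The NRF2 motif was in 2 of 6 NRF2 genes and the CArG box in 1 of 14 immediate early genes. A gene counts with a match in any of its windows, so these counts are not comparable with the shares of windows. Of windows of called genes at least 2-fold higher, 1.85% held the CArG box, 7.85% kappaB, 6.65% the heat shock motif and 15.1% the NRF2 motif. At least 2-fold lower, the shares were 1.52%, 5.32%, 7.93% and 14.3%. No test was made on these counts or shares.

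NF-kB is a pair of Rel proteins held in the cytoplasm by inhibitors that are themselves its targets. Of 18 genes 13 rose and 0 fell. Nfkb2, a precursor subunit, rose from 0.76 and 0.69 to 2.84 and 2.91 (2.15 ± 0.21, adjusted p = 0.00184), Nfkb1 by 1.03 ± 0.18 and Rel by 1.20 ± 0.19. Relb rose by 2.33 ± 0.21 at its brightest probe, with probes from -0.46 to 3.88. Among the inhibitors and cofactors, Nfkbiz rose from -3.21 and -2.94 to -0.41 and -0.24 (2.75 ± 0.25), Bcl3 by 2.64 ± 0.39, Nfkbie by 1.29 ± 0.20 and Nfkbia by 0.80 ± 0.18. Tnfaip3, which shuts the pathway off, gave 0.56 ± 0.20 and did not pass. Of the 13 rises 4 held with any mouse left out.

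Chemokine genes gave calls in both directions. Cxcl1, which draws neutrophils, rose from -3.18 and -3.62 to 2.75 and 2.95 (6.25 ± 0.41, adjusted p = 0.000891), and Cxcl17, a mucosal chemokine, was at least 11.3-fold higher. Cxcl9, which draws T cells, fell from -2.16 and -1.21 to -7.09 and -4.90 (-4.31 ± 0.96, adjusted p = 0.0263), above background on 1 of 2 IRI arrays, and Cxcl12 fell by 1.42 ± 0.21. In all 3 of 15 CXC genes rose and 4 fell, and 2 of the 7 calls held. The list of CC genes had 2 rises and 2 falls among 18, shares near the 9.45% and 8.85% over all genes, and 0 of the 4 held: Ccl20, above background on 1 of 2 sham arrays, rose by 4.88 ± 0.94 and Cx3cl1, a membrane-bound chemokine, by 1.31 ± 0.25, while Ccl19 fell by 2.50 ± 0.35. Ccl2, the monocyte attractant, stood at -2.21 and -2.33 in sham and -0.72 and -0.78 in IRI, with a difference of 1.52 ± 0.77 (adjusted p = 0.214).

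In the interleukin 1 family, Il1f6, which encodes the epithelial cytokine IL-36 alpha, was at least 81.5-fold higher, from -6.55 and -6.95 to 1.40 and 1.91 (adjusted p = 0.000599). The receptor antagonist Il1rn was at least 11.8-fold higher and the decoy receptor Il1r2 at least 3.51-fold higher. Il1b itself gave 0.72 ± 0.41 and did not pass. The signalling adaptor Myd88 rose by 1.27 ± 0.19. In all 4 of 15 genes of this list rose and 1 fell, beside 9.45% and 8.85% over all genes, and 2 of the 5 calls held.

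The cytokines that share the gp130 receptor chain gave 9 rises and 1 fall among 21 genes, and 4 of the 10 held. Socs3, the feedback inhibitor of this signal, rose from -1.67 and -1.31 to 2.69 and 3.33 (4.50 ± 0.32, adjusted p = 0.000969), and Osmr, the oncostatin M receptor, from -0.50 and -0.04 to 2.03 and 2.09 (2.33 ± 0.25). The ligands Il11, Clcf1 and Il6 were at least 10.1-fold, at least 5.90-fold and at least 2.47-fold higher, and Lif rose by 1.44 ± 0.33. Stat3, the transcription factor they activate, rose by 1.55 ± 0.18. The receptor chain gene Il6st gave 0.55 ± 0.27 and did not pass.

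In the TNF superfamily 7 of 21 genes rose and 0 fell. Tnf itself did not pass, at -1.28 and -1.46 in sham and -1.87 and -2.11 in IRI (-0.62 ± 0.23, adjusted p = 0.111). Tnfrsf23, a decoy receptor, rose from -2.88 and -2.71 to 1.01 and 0.84 and Tnfrsf1a, the main TNF receptor, by 1.79 ± 0.18. Tnfrsf10b, the death receptor for TRAIL, rose by 1.78 ± 0.19. Of the 7 rises 6 held with any mouse left out. Of 19 genes of microbial sensing 4 rose and 3 fell, and 3 of the 7 calls held. Cd14, the co-receptor for bacterial lipid, rose from -0.89 and -1.16 to 3.11 and 3.26 (4.21 ± 0.25, adjusted p = 0.000726), and Sting1, an adaptor of DNA sensing, by 2.62 ± 0.21. Of 27 genes of the interferon response 1 rose and 0 fell, Oasl1, by 1.64 ± 0.42, a call that did not hold. Isg15 and Irf7 gave 0.64 ± 0.24 and 0.37 ± 0.20 and did not pass.

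Acute phase proteins are made mostly by liver, and 10 of 26 rose here while 4 fell, with 4 of the 14 calls held. The 3 fibrinogen chains gave the largest values. Fgb rose from -2.18 and -1.52 to 5.39 and 5.31 (7.20 ± 0.63, adjusted p = 0.00135), Fgg from 1.08 and 1.15 to 7.06 and 7.18 (6.01 ± 0.58) and Fga from -2.72 and -2.89 to 2.53 and 2.54 (5.34 ± 0.62). C3, the central complement protein, rose by 3.43 ± 0.72. Of 8 hepatocyte markers tested 0 rose and 2 fell, 0 of which held, and all 8 differences were below 0. Alb, for albumin, stood at -1.40 and -0.50 in sham and -1.60 and -2.01 in IRI. C8a, of the membrane attack complex, fell by 5.79 ± 1.52 (adjusted p = 0.0422), above background on 1 of 2 IRI arrays.

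In the list of clotting, clot dissolution and serpins 11 of 26 genes rose and 3 fell, and 5 of the 14 calls held. Plaur, the urokinase receptor, rose from -2.12 and -2.08 to 1.39 and 1.82 (3.70 ± 0.22, adjusted p = 0.000781). Plau, for urokinase, stood at 4.51 and 4.40 in sham and 4.42 and 4.48 in IRI and did not pass. F3, the tissue factor that starts clotting, rose by 1.78 ± 0.29, and Proz, for protein Z, fell from 1.44 and 1.50 to -2.11 and -1.97.

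Matrix genes gave 7 rises and 3 falls among 31, and matrix proteases and their inhibitors 7 rises and 2 falls among 16. Of these 10 and 9 calls, 6 and 6 held. The share of falls among matrix genes was near the 8.85% over all genes, where rises made up 9.45%. Tnc, a matrix protein of wounds, was at least 5.48-fold higher. Lamb3, a laminin chain of epithelial basement membrane, rose by 2.29 ± 0.33, and Col18a1 by 1.54 ± 0.17. Dcn, the collagen-binding proteoglycan decorin, fell from 2.69 and 2.85 to 0.25 and 0.40 (-2.45 ± 0.31, adjusted p = 0.00413). Col1a1, Col3a1 and Fn1 gave 1.20 ± 0.38, 0.74 ± 0.35 and 0.20 ± 0.28 and did not pass. Adamts1 and Adamts4, proteases of proteoglycans, rose by 2.53 ± 0.20 and 3.51 ± 0.36, and Adam8 from -3.80 and -3.77 to -0.08 and 0.47. Claudins, which seal tight junctions, and integrins, which hold cells to matrix, gave 10 rises and 1 fall among 24 genes of junctions, and 3 of the 11 held. Cldn1 rose by 1.94 ± 0.20, Cldn4 by 2.00 ± 0.41, Cldn7 by 1.73 ± 0.30 and Itga3 by 1.52 ± 0.21. Of all 18 genes with a claudin symbol 5 rose and 2 fell, with a median of -0.10.

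Of 13 neutrophil genes 5 rose and 1 fell, and 2 of the 6 calls held. S100a8 rose from -3.52 and -3.19 to -0.03 and 0.42 (3.55 ± 0.36, adjusted p = 0.00217), S100a9 from -0.80 and -1.03 to 1.69 and 2.40, and Retnlg, a resistin-like protein, was at least 4.33-fold higher. The 1 fall was that of Itgam, which is also in the macrophage list, with a difference of -2.05. Of the 13 differences 5 were below 0. Of 21 macrophage genes 8 rose and 4 fell, and 4 of the 12 calls held. Cd68, a lysosomal marker, rose by 2.70 ± 0.21 and Chil3, a chitinase-like protein, by 4.39 ± 1.19, while Csf1r, the receptor that macrophages need, fell from 3.84 and 3.47 to 2.01 and 1.89 (-1.70 ± 0.20, adjusted p = 0.0036) and Adgre1, F4/80, by 1.13 ± 0.24. The ligands of Csf1r rose, Csf1 by 2.23 ± 0.19 and Il34 by 2.40 ± 0.34. Of 22 genes of T, NK, B and dendritic cells 5 fell and 0 rose, and 1 fall held. Klrd1 of NK cells was at least 2.70-fold lower, and Zap70, the T cell receptor kinase, fell by 1.87 ± 0.24, above background on 1 of 2 IRI arrays. H2-Aa, an MHC class II chain, fell from 0.69 and 0.36 to -1.19 and -0.86 (-1.55 ± 0.26), and 2 of 10 class II genes fell in all, 0 of which held. How many blood cells each kidney held was not measured.

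Of 11 genes for ligands and receptors of the EGF family 3 rose and 1, Egf, fell, and 0 of the 4 calls held. Hbegf rose from 0.80 and 0.41 to 2.28 and 2.45 (1.76 ± 0.30, adjusted p = 0.0117) and Areg was at least 4.35-fold higher, at -1.48 and -3.68 in the 2 IRI mice. Nrg1, a ligand of ErbB3 and ErbB4, rose by 2.06 ± 0.30, with probes from -0.16 to 2.16. The receptor gene Egfr gave 0.10 ± 0.24 and did not pass. In the TGF-beta list 6 of 24 genes rose and 1 fell, and 1 of the 7 calls held. Gdf15, a stress cytokine, rose from 2.14 and 0.54 to 4.81 and 4.40 (3.27 ± 0.52), Ccn1, a matricellular protein, by 3.28 ± 0.50 and Id1 by 1.56 ± 0.19. Tgfb1 and Ccn2 gave 0.68 ± 0.21 and 0.79 ± 0.43 and did not pass. Dusp5, which switches off ERK in the nucleus, rose from -2.52 and -2.55 to 0.95 and 1.00, and 7 of 15 genes for MAP kinase phosphatases and Sprouty proteins rose, with 0 lower and 2 of the 7 held.

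Kl, the FGF23 co-receptor klotho, fell from 4.75 and 4.73 to 2.46 and 2.79 (-2.11 ± 0.50, adjusted p = 0.0316), and its probes ranged from -2.11 to -1.07. Cyp24a1, which breaks down vitamin D, rose from 1.29 and 1.49 to 3.94 and 4.28 (2.72 ± 0.35, adjusted p = 0.00475), while the vitamin D receptor gene Vdr gave -0.08 ± 0.16 and did not pass. Phosphate carriers split by type: beside the falls of Slc34a1 and Slc34a3, the ubiquitous carriers Slc20a1 and Slc20a2 rose by 1.69 ± 0.28 and 0.81 ± 0.17. Trpv6, an apical calcium channel, rose from -2.75 and -2.55 to -0.50 and -0.51 (2.14 ± 0.20). Of 11 carbonic anhydrase genes 5 fell and 1 rose, and 4 of the 6 calls held. The membrane-bound forms of the proximal tubule, Car4 and Car14, fell by 2.66 ± 0.36 and 3.44 ± 0.27, and cytosolic Car13 rose from -4.16 and -4.03 to -0.03 and -0.39 (3.89 ± 0.34).

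NRF2 switches on genes against oxidants, and 14 of 39 genes of its list rose while 2 fell. Hmox1, which degrades haem, rose from 2.20 and 1.85 to 5.75 and 5.68 (3.69 ± 0.34, adjusted p = 0.00157), and Srxn1, which repairs peroxiredoxins, from 3.27 and 3.27 to 6.35 and 5.57 (2.69 ± 0.40). The carbonyl reductase Cbr3 went from -0.66 and -0.63 to 5.09 and 4.71 (5.54 ± 0.42) and the aldo-keto reductase Akr1b8 from 1.11 and 1.07 to 4.98 and 4.95 (3.87 ± 0.33). Txnrd1 and Nqo1 rose by 1.77 ± 0.17 and 1.60 ± 0.19. Gclm and Gclc, for glutathione synthesis, gave 0.46 ± 0.20 and 0.56 ± 0.40 and did not pass, and Sod2, the mitochondrial superoxide dismutase, fell by 1.22 ± 0.33. Of the 16 calls 7 held with any mouse left out.

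Of 24 genes of metal handling and ferroptosis 10 rose and 1 fell, and 4 of the 11 calls held. The metallothioneins bind zinc and copper. Mt1 rose by 2.47 ± 0.32 and Mt2 from 4.78 and 4.85 to 8.80 and 8.44 (3.81 ± 0.35). Steap1, a metalloreductase, rose from 0.19 and 0.26 to 3.93 and 3.69 (3.58 ± 0.29, adjusted p = 0.00107), and the iron importer Tfrc and exporter Slc40a1 by 1.22 ± 0.21 and 1.34 ± 0.19. Fth1, the heavy chain of ferritin, did not pass, at 9.17 and 9.03 in sham and 9.28 and 8.94 in IRI (0.01 ± 0.18). Acsl4, which loads the lipids that ferroptosis oxidises, rose by 2.31 ± 0.48.

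Heat shock genes gave 5 rises and 1 fall among 22, and 1 of the 6 held. Hspb1, a small chaperone bound to actin filaments, rose from 2.57 and 2.73 to 5.47 and 5.86 (3.01 ± 0.31, adjusted p = 0.00218), and Cryab from 4.84 and 4.49 to 5.91 and 6.32 (1.45 ± 0.22). Hspa1b, an inducible HSP70 with a near-identical neighbour that its probe may read, rose by 1.29 ± 0.29. Hspa8, the constant form, did not pass, at 7.07 and 7.11 in sham and 6.89 and 7.05 in IRI. In the unfolded protein response 5 of 29 rose and 1 fell, and 0 of the 6 calls held. Trib3 and Asns, targets of ATF4, rose by 2.58 ± 0.51 and 2.35 ± 0.56, and Hspa5, the main chaperone of the endoplasmic reticulum, gave 0.28 ± 0.28 and did not pass. Hypoxia targets gave 4 rises and 2 falls among 24, and 1 of the 6 held. Their share of falls was near the 8.85% over all genes, where rises made up 9.45%. Adm and Ddit4 rose by 1.88 ± 0.40 and 1.45 ± 0.18, but Vegfa, Pgk1 and Ldha gave -0.65 ± 0.28, 0.01 ± 0.33 and 0.08 ± 0.25 and did not pass.

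Of 27 p53 targets and damage genes 12 rose and 1 fell. Cdkn1a, the cell cycle inhibitor p21, rose from -2.49 and -2.59 to 1.53 and 1.13 (3.87 ± 0.57, adjusted p = 0.00733), Btg2 by 2.57 ± 0.29 and Phlda3 by 1.15 ± 0.20. Mdm2, the p53 ligase, stood at 3.02 and 2.88 in sham and 3.12 and 3.04 in IRI and did not pass. Of the p53 list 2 calls held with any mouse left out. In the same kidneys 15 of 34 genes of G1 and S phase rose and 0 fell, and 4 of the 15 held. Mcm2, Mcm3, Mcm4 and Mcm5, subunits of the replicative helicase, rose by 1.96 ± 0.26, 2.56 ± 0.42, 1.90 ± 0.31 and 2.25 ± 0.43, and Uhrf1 from -1.24 and -1.04 to 2.01 and 2.34 (3.31 ± 0.33). Of the 24 genes of G2 and mitosis 1 rose and 0 fell, with a median of 0.80: Anln, by 2.16 ± 0.58, a call that did not hold with any mouse left out. Mki67 stood at -1.48 and -1.78 in sham and -1.07 and -0.94 in IRI, with a difference of 0.62 ± 1.04, and Top2a at -3.44 and -3.62 in sham and -1.86 and -1.15 in IRI, with 2.02 ± 0.97. The pooled spread takes in the injected mice, in which Mki67 ran from -1.72 to 1.41.

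Genes of cell death gave 12 rises and 0 falls among 38, and 4 of the 12 held. Mlkl and Ripk3, which carry out necroptosis, rose from -4.00 and -4.01 to -0.05 and -0.80 (3.58 ± 0.39, adjusted p = 0.00262) and by 1.93 ± 0.46. Casp8 rose by 1.69 ± 0.20 and the pore former Bak1 by 1.86 ± 0.22, as did Bcl2l1, the death inhibitor BCL-XL, by 1.19 ± 0.21. Gsdmd, the pore former of pyroptosis, gave 0.06 ± 0.19 and did not pass.

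**Figure D4:**
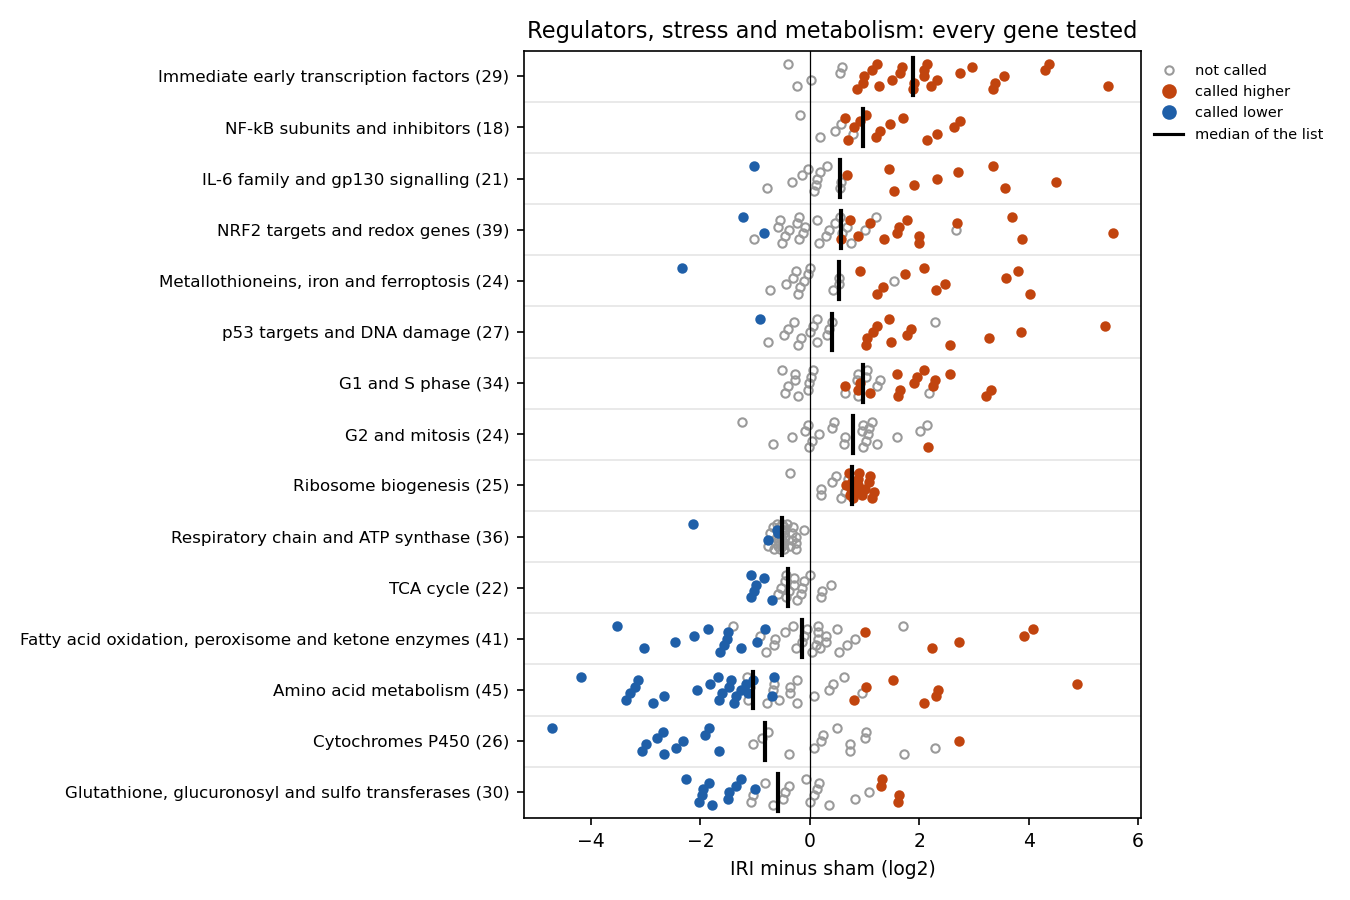
Difference between IRI and sham (log2, horizontal) for every gene tested in 15 lists of regulators, stress and metabolism, with the number tested in brackets. Filled points were called and open ones were not, and the bar is the median of the list, which is 1.89 for immediate early factors and -0.51 for the respiratory chain.

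Of 36 subunits of the respiratory chain and ATP synthase 4 fell and 0 rose, a share of falls near the 8.85% over all genes. All 36 differences were below 0 and the median was -0.51, beside -0.08 over all genes. The count of falls ran from 0 with array brightness as a covariate and 1 with scaling to the median to 14 with quantile normalization and 24 with normexp background correction and quantile normalization. Of the 36 differences 35 or 36 were below 0 in each of these fits. None of the falls called here was called in every fit with 1 mouse left out. Ndufs1 of complex I went from 5.44 and 5.52 to 4.70 and 4.74 (-0.76 ± 0.16, adjusted p = 0.0214) and was called. Sdha of complex II did not pass, at 5.80 and 5.83 in sham and 4.99 and 5.10 in IRI (-0.77 ± 0.23, adjusted p = 0.0613). The citrate cycle enzymes Idh2 and Mdh1 fell by 1.08 ± 0.16 and 0.98 ± 0.22, in a list of 22 with 6 falls and 0 rises, where 0 of the 6 held. Cs, for citrate synthase, gave 0.23 ± 0.19 and did not pass.

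In fatty acid oxidation 12 of 41 genes fell and 5 rose. Acadm, the medium-chain dehydrogenase, fell from 7.13 and 6.82 to 5.31 and 5.65 (-1.49 ± 0.25, adjusted p = 0.0112), the acyl-CoA synthetases Acsm2 and Acsm3 by 1.86 ± 0.26 and 3.52 ± 0.73, and Hao2, a peroxisomal oxidase, by 3.04 ± 0.33. Cpt1a, the gate of fatty acids into mitochondria, stood at 4.50 and 4.81 in sham and 4.49 and 4.53 in IRI, and the regulator Ppara at 3.76 and 3.97 and 4.36 and 3.77. Neither passed. The 5 that rose were Pdk4, which shuts pyruvate out of the citrate cycle, from -0.95 and 0.02 to 3.68 and 3.57 (4.09 ± 0.52, adjusted p = 0.00427), Plin2, which coats lipid droplets, from 2.78 and 3.15 to 7.13 and 6.62 (3.91 ± 0.82), Angptl4 by 2.23 ± 0.31, Fabp1 by 2.73 ± 0.23 and Pex11a by 1.01 ± 0.27. Cidec, a lipid droplet gene of fat and liver, rose from -3.53 and -3.86 to 1.32 and 0.27 (4.49 ± 0.61, adjusted p = 0.00531), while the fat cell genes Lep and Fabp4 gave -0.23 ± 0.21 and -0.07 ± 0.22 and did not pass. Of the 17 calls in fatty acid oxidation 7 held with any mouse left out.

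Sugar metabolism gave 7 rises and 8 falls among 33 genes, and 3 of the 15 held. Hk2, the inducible hexokinase, was at least 9.29-fold higher (adjusted p = 0.00114), and the lactate exporter Slc16a3 rose by 1.85 ± 0.19 and the phosphofructokinase Pfkp by 1.08 ± 0.23. G6pc, the last step of glucose output, fell from 4.94 and 5.77 to 2.99 and 2.91 (-2.40 ± 0.50), and Khk, for fructose, by 1.63 ± 0.22. Pck1, which starts glucose synthesis, went the other way, from 5.51 and 6.29 to 7.65 and 7.41 (1.63 ± 0.28, adjusted p = 0.0112). Both IRI kidneys were above both sham kidneys for Pck1 and below them for G6pc.

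Amino acid enzymes, many of them at home in the proximal tubule, gave 22 falls and 7 rises among 45 genes, at a median of -1.03. Aadat, a transaminase of lysine and kynurenine breakdown, fell from 4.81 and 4.86 to 1.22 and 1.72 (-3.37 ± 0.25, adjusted p = 0.000983). Ass1, with which the kidney makes arginine, fell from 8.06 and 8.08 to 5.41 and 5.42 (-2.66 ± 0.22, adjusted p = 0.0011), and Cbs, of the sulphur amino acids, from 5.60 and 5.53 to 2.63 and 2.77 (-2.87 ± 0.23). Dao, the D-amino acid oxidase, and Prodh, which oxidises proline, each fell, by 1.67 ± 0.32 and 1.67 ± 0.28. Arg2, the mitochondrial arginase, rose from -3.10 and -3.32 to 1.84 and 1.51 (4.89 ± 0.47, adjusted p = 0.00177), and Smox, a polyamine oxidase, by 2.08 ± 0.42. Asns was another rise in this list. Of the 29 calls 10 held with any mouse left out.

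Tryptophan is broken down to NAD by way of kynurenine. Kmo, which hydroxylates kynurenine, went from 4.03 and 4.08 to 2.16 and 2.10 (-1.92 ± 0.33, adjusted p = 0.0111) and Haao, a later oxygenase, from 5.09 and 4.96 to 3.11 and 3.36 (-1.79 ± 0.39). Acmsd, which draws the pathway away from NAD, fell as well, from 1.36 and 1.10 to -2.21 and -1.75 (-3.21 ± 0.51). Qprt and Nampt gave -0.98 ± 0.44 and 0.53 ± 0.38 and did not pass, and Ppargc1a, a regulator of mitochondrial mass, gave -1.40 ± 0.39 (adjusted p = 0.0513). In the list of NAD and mitochondrial regulators 6 of 25 fell and 1 rose, and 0 of the 7 calls held.

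Cytochromes P450 and transferases handle drugs and foreign compounds. Among all genes with a cytochrome P450 symbol 23 of 61 fell and 3 rose, and of those with a glucuronosyltransferase symbol 7 of 14 fell and 0 rose. Of the 26 and 7 calls, 7 and 0 held. Cyp2d26 fell from 6.34 and 6.62 to 3.11 and 3.73 (-3.07 ± 0.47), Cyp4b1 by 1.85 ± 0.39 and Cyp2j5 by 1.66 ± 0.31. Ugt3a1 and Ugt3a2 fell by 2.27 ± 0.37 and 2.02 ± 0.35, and Gstk1, the mitochondrial glutathione transferase, by 1.48 ± 0.19. The glutathione transferases Mgst1 and Gstp1 rose, by 1.62 ± 0.32 and 1.30 ± 0.34. Of 23 genes for ABC and drug transporters 1 rose and 8 fell, at a median of -0.54, and 5 of the 9 calls held. The 1 rise was Abcc3, an exporter of conjugates, from -2.27 and -2.23 to 0.62 and 0.52 (2.82 ± 0.19, adjusted p = 0.000931). Of all 38 genes with an ABC transporter symbol 3 rose and 7 fell. Slc47a1, an exporter of cations into urine, fell by 1.36 ± 0.22. Members of these families share sequence, and probes may read a near copy. Across all solute carriers 67 of 325 fell (20.6%) and 35 rose (10.8%), and 19 of the 102 calls held. Over all genes falls made up 8.85% and rises 9.45%, so the share of rises was near that of all genes.

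Of 25 genes of ribosome biogenesis 16 rose and 0 fell, at a median of 0.77. Nolc1 and Nop58, proteins of the nucleolus, rose from 0.92 and 0.84 to 2.02 and 1.93 (1.10 ± 0.15, adjusted p = 0.00554) and from 1.14 and 0.93 to 2.10 and 2.30 (1.17 ± 0.16), and Fbl, which methylates ribosomal RNA, by 0.95 ± 0.16. None of the rises in this list was called in every fit with 1 mouse left out. Of 27 cytosolic ribosomal protein genes 3 rose and 0 fell at a median of 0.53, and 0 of the 3 held. The share of rises in this list of 27 was near the 9.45% over all genes. Of all 79 genes with a cytosolic ribosomal protein symbol, however, 18 rose (22.8%) and 0 fell, at a median of 0.53. In the list of 27 the count of rises ran from 0 with array brightness as a covariate and 1 with quantile normalization to 17 with normexp background correction and quantile normalization. Psme3, a proteasome activator, rose by 1.71 ± 0.26, and 5 of 27 proteasome genes rose, 0 of which held. Of 13 genes for microRNA processing 0 were called, and Ago2 and Dicer1 gave 0.33 ± 0.16 and -0.42 ± 0.29.

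Sterol synthesis and lysosomes gave calls in both directions. The shares of rises in these lists and in the Wnt list below lay near the 9.45% over all genes, where falls made up 8.85%. Of 24 cholesterol genes 3 rose and 4 fell, with 1 of the 7 calls held, and Idi1 of the mevalonate pathway fell by 1.32 ± 0.22. Of 34 genes of lysosome and autophagy 4 rose and 6 fell, and 1 of the 10 calls held. Ctsd, the acid protease cathepsin D, rose from 5.47 and 5.44 to 7.12 and 7.00 (1.60 ± 0.35), and Gabarapl1, which coats autophagosomes, fell from 8.26 and 8.20 to 6.70 and 6.69 (-1.54 ± 0.16, adjusted p = 0.00224). Of 11 genes of the renin-angiotensin system 4 fell and 0 rose, with 0 of the 4 held, and Mas1, a receptor of angiotensin peptides, fell by 2.22 ± 0.54, above background on 1 of 2 IRI arrays. Of 21 Wnt genes 2 rose and 3 fell, with 1 of the 5 calls held, and the ligand Wnt10a went from -3.45 and -3.17 to -1.07 and -0.74 (2.41 ± 0.24). The secreted Wnt inhibitor Sfrp1 fell by 1.87 ± 0.43.

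Of 16 clock genes 4 fell and 1 rose, and 0 of the 5 calls held. Tef and Hlf, activators driven by the clock, went from 6.05 and 6.55 to 4.79 and 4.93 (-1.44 ± 0.39, adjusted p = 0.0446) and from 2.30 and 2.46 to 0.63 and 0.60 (-1.76 ± 0.32). Nfil3, the repressor at the same sites, rose from -1.43 and -1.71 to 0.52 and 0.78 (2.22 ± 0.41). Dbp, Per1 and Per2 gave -1.06 ± 0.65, -0.49 ± 0.36 and -0.38 ± 0.74 and did not pass. The hour of surgery is not stated in the labels.

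**Figure D5:**
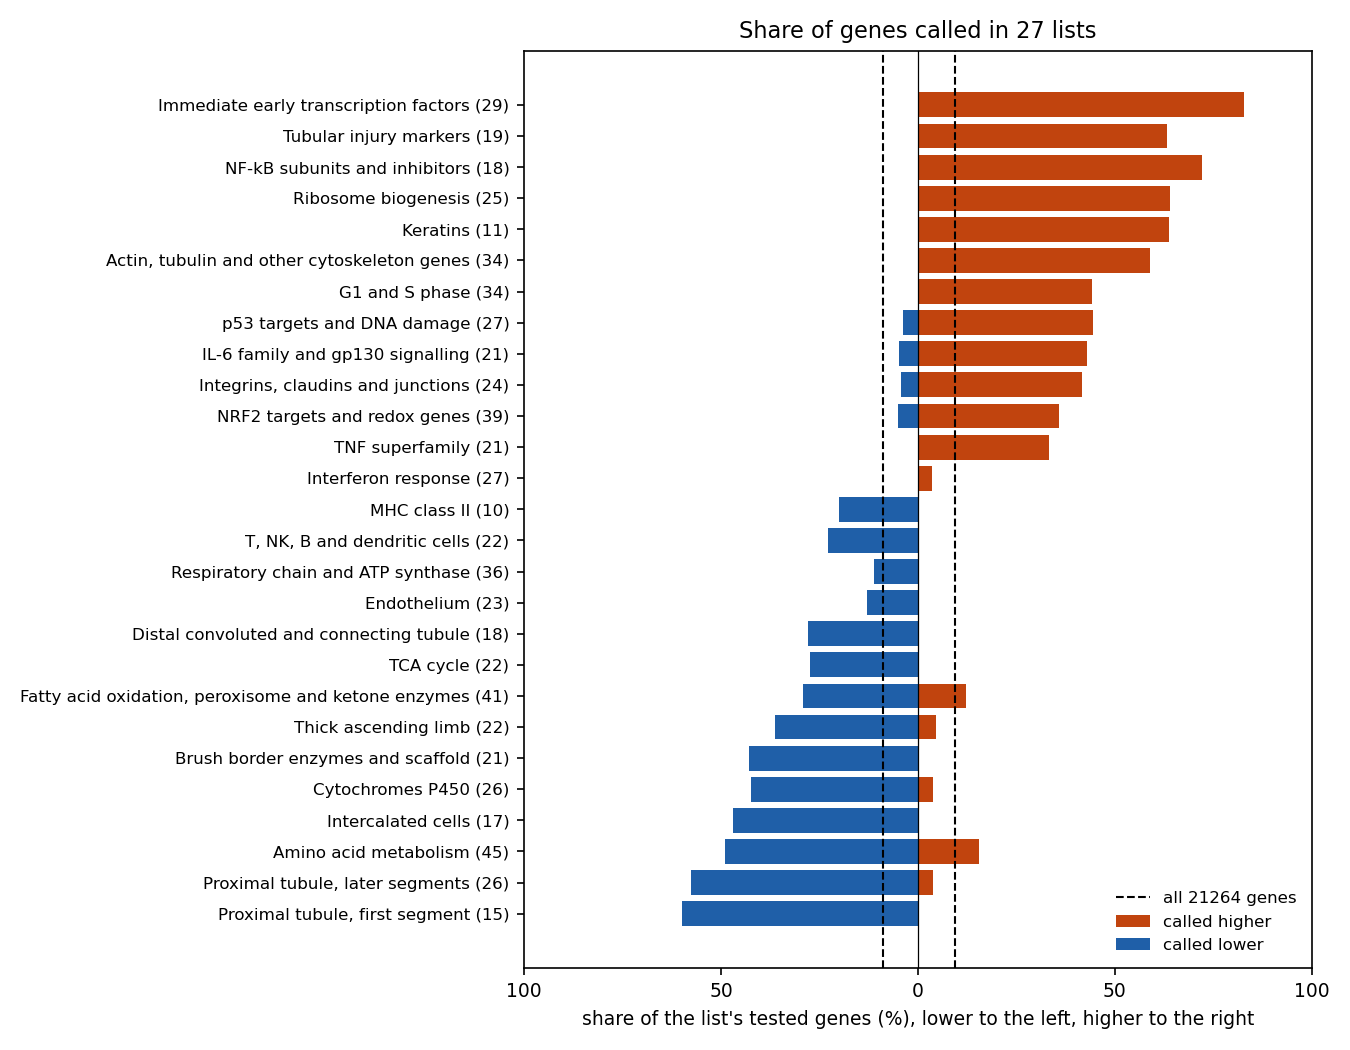
Share of the genes tested in each of 27 lists that were called higher (orange, to the right) or lower (blue, to the left) in IRI, with the number tested in brackets and the shares over all genes, 9.45% and 8.85%, as dashed lines. Immediate early, NF-kB and ribosome biogenesis genes have the longest bars to the right, and the proximal tubule lists the longest to the left.

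The IRI kidneys were last set beside the 4 kidneys injured after an injection, a contrast that shares the IRI arrays with the one above. With limma 0 of 21264 genes were called (0%) between IRI and the mean of the injected groups, the smallest adjusted p was 0.0928, and 4286 genes had an unadjusted p below 0.05. The injected mice are given in the order mimic 6, mimic 7, control miRNA 1 and control miRNA 5. Havcr1 was 3.82, 2.97, 4.44 and 4.25 in them, against 4.36 and 4.56 in IRI, and Krt20 5.74, 4.41, 6.40 and 6.08 against 6.16 and 5.87. For Slc34a1 the injected mice gave 5.00, 5.78, 5.42 and 5.16 against 4.87 and 5.36. Cxcl1 was 1.61, 1.87, 1.47 and 2.77 against 2.75 and 2.95, with 3 of the 4 below both IRI kidneys. Egf was 0.12, 4.02, 1.38 and 2.22 against 0.80 and 1.43, and the injected mice lay on both sides of the IRI mice. If the array positions in the scanner files are read as row and column, injected and uninjected arrays lay in different rows, and row and injection then cannot be told apart.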

How the data were processed

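RNA from 30 mg of each left kidney was labelled with Cy3 and hybridised to 8 Agilent 1-colour arrays of 1 slide, 1 for each mouse, per the labels' protocols. The deposited scanner files give spot intensities, and the processed intensity is background-subtracted within the array by Agilent Feature Extraction 12.0.3.1, per the file headers. The authors' deposited table of processed values was found to hold each probe as a ratio to its median over the arrays. How those ratios were scaled is not stated, and they served only as an alternative, on the log2 scale.

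Control spots and spots with outlier flags were left out, and log2 processed intensity minus the 75th percentile of each array was taken. Of 56605 probes, 33767 took their name from RefSeq by accession, 9866 by symbol and 310 by a former symbol, and 12662 were left with the array's own name. A probe was kept where it was well above background on every array of at least 1 group, which left 32218, and the brightest probe stood for a gene. Limma 3.58.1 in R 4.3.3 fitted a mean per group over all 8 arrays, with Benjamini-Hochberg adjustment over 21264 genes, and was tested on simulated data. The number of arrays limits the precision.

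Where no array of a group had a gene, or the probe that stands for it, well above background, only a bound is given: the mean of the brighter group over the mean, for the dimmer group, of the array's lowest signal well above background or the probe's own signal, whichever was higher. Genes named are the 20 largest rises and 20 largest falls, up to 6 members of each list with the smallest p, and leading members marked in the lists. The comparison and the lists were chosen with earlier results of these data known. A gene may be in more than 1 list, and some genes of the lists are not reported here. Whether mice of a group shared a litter or cage is not stated, so p-values measure only the spread between these samples.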

Additional observations from a re-analysis of the deposited data

How the results depend on the processing

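No paired analysis was possible because the sham mice (1 and 4) and the IRI mice (30 and 34) share no replicate number. Against 3891 genes called, 2009 higher and 1882 lower, testing every probe without a filter on dim ones gave 2450, 1206 and 1244. The 4 arrays alone gave 6785, 3361 and 3424, array weights 7995, 3931 and 4064, and the brightness of each array as a covariate 1857, 1011 and 846. A test against a 2-fold difference gave 412, 243 and 169. With 1 mouse left out in turn, calls ran from 801 to 1078, rises from 447 to 548 and falls from 354 to 530, and the lone mouse of its group was assumed to vary like the others. Of the genes named above 266 were called, 102 against a 2-fold difference and 141 to 168 with a mouse left out. Quantile normalization, scaling to the median, normexp correction, a stricter filter, the series table and the mean over probes gave between 3618 and 4313 calls, which took in between 3345 and 3481 of the 3891, the stricter filter testing 19212 genes. Lists with more members higher than lower numbered 37, and between 31 and 43 elsewhere. No difference of a named gene that was called changed sign under an alternative. The 75th percentiles, used as brightness, were 408 and 476 in sham and 468 and 600 in IRI. Of the genes called, 200 were not well above background in sham and 177 not in IRI, so the sizes of those differences are bounds.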
